A study of Mus musculus with 19 samples.

Results

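The comparison described here asked how the whole-lung transcriptome of wild-type (WT) mice differed after chronic exposure to ovalbumin (OVA), the egg-white protein used as the allergen, from that of WT mice given saline. It compared 10 of the 19 RNA-seq libraries of the series, chosen by the group prefix of their count columns, 5 from WT-OVA lungs and 5 from WT-saline lungs, over all genes in the table. The other libraries came from mice lacking one copy of Has2, a hyaluronan synthase gene, given OVA (5 libraries) or saline (4 libraries). They entered the same fit, so the spread behind each p-value was estimated over all 19 libraries. All mice were female Balb/c young adults at the start, and the WT mice were littermates of the Has2+/- mice. WT-OVA mice were sensitized by intraperitoneal OVA in alum and then received OVA into the nose over 8 weeks, whereas WT-saline mice had saline by injection and then into the nose for the same 8 weeks. The lungs were taken a day after the last challenge and were homogenized whole, so each library mixes airways, alveoli, vessels, pleura and whatever blood remained in them.

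As background, allergen-specific T helper 2 cells release interleukin-4, interleukin-5 and interleukin-13. Interleukin-5 sustains eosinophils, interleukin-4 drives B cells towards IgE and IgG1, and interleukin-13 acts through the receptor chain Il4ra and the transcription factor Stat6 on airway epithelium and macrophages. With repeated challenge the airway wall and its vessels are remodelled, mucus-producing goblet cells replace part of the club cells that line mouse airways, and plasma cells and macrophages accumulate.

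The unit throughout is CPM, the count of a gene scaled to the depth of its library with TMM factors, and the per-library values run through WT-OVA libraries 10 to 14 and then WT-saline libraries 1 to 5. A gene was called higher or lower where edgeR's quasi-likelihood test gave an adjusted p (Benjamini-Hochberg, over the 14495 genes tested) under 0.01 with a change of more than 1.2-fold. Every adjusted p below comes from that test, and "rose" and "fell" are used only of called genes. CPM are shares of a library, so a fall is relative to the other RNA in it, and in a whole-lung sample fewer cells of a type and less RNA per cell cannot be told apart.

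The WT-OVA and WT-saline libraries separated along the first principal component of the WT libraries, which held 69.5% of their variance, at -58.9 to -32.2 for the WT-OVA lungs and 30.1 to 47.7 for the WT-saline lungs. The totals were 4663153 to 5845245 counts in the WT-OVA libraries and 4879142 to 6424220 counts in the WT-saline libraries. Of the 14495 genes tested, 1733 were called higher and 1442 lower in the WT-OVA lungs, which is 21.9% of the genes in all, 12% higher and 9.95% lower. These shares are the background for each list of genes below. The WT groups did not overlap in CPM for 3977 of the 14495 genes tested (27.4%), called or not. Some genes named below were picked for the largest changes among called genes whose groups did not overlap. For those, the separation was set by the choice. The rises were the larger in size. More than 4-fold changes numbered 358 among the genes called higher and 13 among those called lower, and the median log2 fold change was 0.92 for the higher and -0.55 for the lower genes. Antigen receptor gene segments, of immunoglobulins and T cell receptors, were 168 of the genes called higher and 0 of those called lower. They were not taken out of these counts and medians. The median over all genes tested was -0.0012. A gene near 0 in the saline lungs could pass the filter on low counts through the OVA libraries alone. Where listed members were under that filter, as for goblet, basal, eosinophil and mast cell genes, the share that rose was in part set by it.

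**Figure D1:**
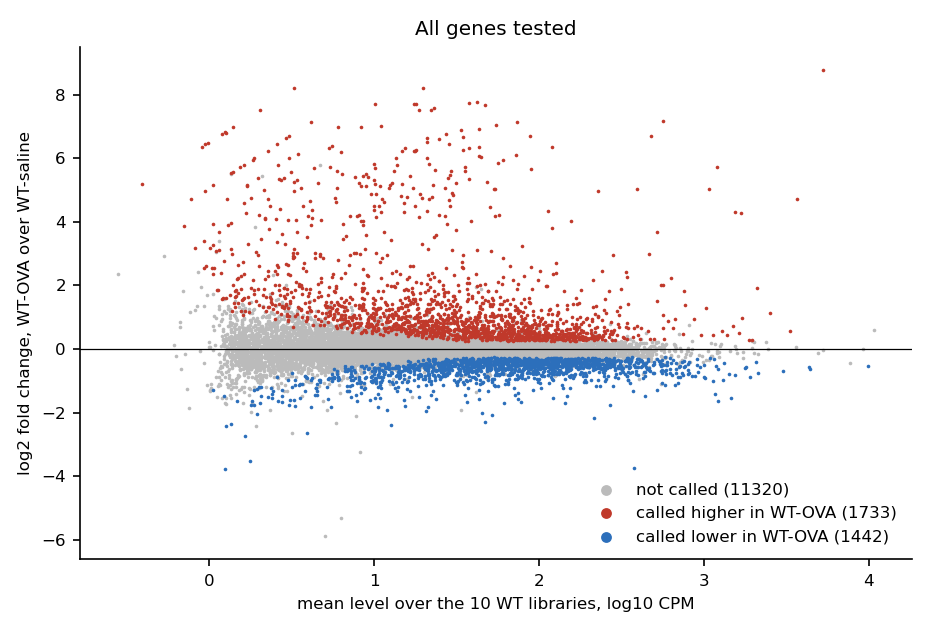
Log2 fold change (WT-OVA over WT-saline, vertical axis) against mean level on a log10 scale (CPM over the 10 WT libraries, horizontal axis) for each of the 14495 genes tested, with genes called higher and lower coloured. The 358 rises above 4-fold, antigen receptor segments included, form a tail on the upper side, whereas only 13 of the genes called lower lie below a 4-fold fall.

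A pair of WT-saline libraries stood apart and bear on some results. WT-saline library 2 held more immune transcripts than the other 4 saline lungs. Its summed MHC class II list was 3681 CPM against 1916 to 2158 CPM in the others, and it lay nearest to the WT-OVA libraries on the first component, at 30.1. WT-saline library 5 held 359 CPM of skeletal muscle genes, against 38.9 to 49.1 CPM in the other saline lungs. Without library 2 there were 3164 called genes, of which 2966 were shared with the full set, and without libraries 2 and 5 together 2594 were called, of which 2479 were shared. Leaving out WT-OVA library 11, the lung farthest from the saline lungs on the first component, gave 2464. Where leaving out a library moved a count of 4 or more list members by over 1.5 times, the count without it is given.

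The airway epithelium showed the mucous programme first. Of the 26 goblet cell and mucus genes listed, 21 passed the filter on low counts and 18 of them rose, with a median log2 fold change of 2.63. Clca1, a secreted calcium-activated chloride channel regulator of goblet cells, was at 1730.2, 2208, 2614, 2651 and 2511 CPM in the WT-OVA lungs, against 1.28, 35.97, 1.38, 47.4 and 134 CPM in the WT-saline lungs (log2 fold change 5.71 ± 0.93 SE, adjusted p = 7.46e-05). The saline lungs varied widely among themselves and all lay below every WT-OVA lung. Muc5ac, a gel-forming mucin that defines induced goblet cells, was at 148, 163, 276, 259 and 236 CPM in the WT-OVA lungs, against 4.03, 9.87, 3.36, 9.56 and 24.7 CPM in the WT-saline lungs (log2 fold change 4.34 ± 0.46 SE, adjusted p = 5.25e-07). Fcgbp, a mucus protein that binds the Fc part of IgG, was at 289.8, 437, 564, 513 and 413 CPM in the WT-OVA lungs, against 7.70, 11.8, 5.54, 13.9 and 30.9 CPM in the WT-saline lungs (log2 fold change 4.96 ± 0.39 SE, adjusted p = 9.85e-09). The groups did not overlap for any of these genes, and WT-saline library 5 was the highest saline lung for all 3. The other gel-forming airway mucin, Muc5b, rose less (log2 fold change 2.25), as did Bpifb1 (2.72), a secretory protein of the airway surface. Slc26a4, which encodes the anion exchanger pendrin, rose by 5.03 on the log2 scale, Itln1, a lectin, by 4.37, Gp2, a bacteria-binding membrane protein, by 4.51 and Gcnt3, which branches mucin sugars, by 4.71.

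Slpi, the secreted inhibitor of neutrophil elastase made by airway epithelium, was at 564, 612, 689, 1239 and 687 CPM in the WT-OVA lungs, against 23.1, 34.9, 17.8, 22.02 and 18.6 CPM in the WT-saline lungs (log2 fold change 5.02 ± 0.27 SE, adjusted p = 5.28e-11). Pigr, the epithelial receptor that carries polymeric IgA and IgM into the airway and was picked out after its values were seen, rose with it (log2 fold change 2.97). Among rises from very low levels, Capn9, a calpain of mucous epithelium, was at 4.25, 8.67, 9.22, 9.58 and 11.1 CPM in the WT-OVA lungs, against 0.183, 0, 0.198, 0 and 0.315 CPM in the WT-saline lungs. Fut1, a fucosyltransferase, was at 3.40, 7.93, 4.71, 8.54 and 5.47 CPM in the WT-OVA lungs, against 0, 0.353, 0, 0 and 0 CPM in the WT-saline lungs. Both rose (adjusted p = 7.10e-07 for Capn9 and 1.27e-07 for Fut1), and the saline lungs held a few reads of each. Sprr2a3, a small proline-rich protein of stratified epithelium, was at 2.13, 13.1, 4.92, 7.67 and 3.10 CPM in the WT-OVA lungs, against 0, 0.176, 0, 0.208 and 0.158 CPM in the WT-saline lungs (log2 fold change 5.56 ± 0.79 SE, adjusted p = 3.72e-05).

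Club cell transcripts went the other way. Of 25 listed club cell genes, 24 passed the filter, 15 fell and the list median was -0.92. These genes encode secretoglobins and the enzymes that oxidize inhaled chemicals. Cyp2f2, the cytochrome P450 typical of mouse club cells, was at 909.9, 698, 1006, 868 and 982 CPM in the WT-OVA lungs, against 1885, 1578, 1919.8, 1702 and 1586 CPM in the WT-saline lungs (log2 fold change -0.96 ± 0.13 SE, adjusted p = 6.87e-06). Fmo2, the main flavin monooxygenase of lung, was at 591, 418, 688, 605 and 673 CPM in the WT-OVA lungs, against 1778, 1684, 1869, 1942 and 1971 CPM in the WT-saline lungs (log2 fold change -1.64 ± 0.22 SE, adjusted p = 9.95e-06). No WT-OVA lung reached the lowest saline lung for either gene. Cbr2 (carbonyl reductase, log2 fold change -0.89), Aldh1a1 (retinaldehyde dehydrogenase, -1.12), Gsta3 (glutathione transferase, -1.70) and the carboxylesterases Ces1d (-0.98) and Ces1g (-2.63) fell as well. The secretoglobin Scgb1a1, the major product of club cells, did not pass the test, at 6551 ± 657 CPM in the WT-OVA lungs and 8909.8 ± 467 CPM in the WT-saline lungs (SD, n = 5 each), with a log2 fold change -0.44 ± 0.17 SE, adjusted p = 0.047. Scgb1a1 was, however, called lower with edgeR on the WT libraries alone (adjusted p = 8.02e-04) and with DESeq2 on the same libraries. Scgb3a2, named after its values were seen, fell (log2 fold change -1.22). The genes of ciliated cells were level. Of 29 ciliated cell genes found, 28 passed the filter, of which 1 rose and 2 fell, their median was 0.04, and the summed level was 1269 to 1429 CPM in the WT-OVA lungs, against 1271 to 1416 CPM in the WT-saline lungs.

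Of 8 basal cell and stratified epithelium genes that passed the filter 4 rose, all from low levels. The count was not stable, at 1 without WT-OVA library 11 or 14 or WT-saline library 4, and at 2 without WT-saline library 3 or 5. Trp63, the transcription factor that defines basal cells, was at 2.13, 3.14, 1.02, 3.49 and 3.28 CPM in the WT-OVA lungs, against 1.47, 1.06, 0, 0.831 and 0.788 CPM in the WT-saline lungs (log2 fold change 1.63 ± 0.42 SE, adjusted p = 0.00439), and was not called without WT-OVA library 11, 13 or 14, without WT-saline library 4 or 5 or without WT-saline libraries 2 and 5 together (adjusted p 0.0101 to 0.0194). Krt5, the basal cell keratin, was at 2.34, 6.83, 3.48, 3.14 and 4.19 CPM in the WT-OVA lungs, against 2.02, 1.76, 0.593, 0.831 and 2.52 CPM in the WT-saline lungs (log2 fold change 1.33 ± 0.35 SE, adjusted p = 0.00532), and was not called without WT-OVA library 11 or 14, without WT-saline library 3 or 4 or with the WT libraries alone (adjusted p 0.0102 to 0.0268). The groups overlapped for both genes. Ngfr, a neurotrophin receptor of basal cells, rose by 1.26 on the log2 scale, but was not called without WT-OVA library 10, 11 or 14, without WT-saline library 1, 3, 4 or 5, without WT-saline libraries 2 and 5 together, with no filter beyond 1 count or with limma-voom (adjusted p 0.0102 to 0.0286).

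The alveolar epithelium divided by cell type. Of 21 type 1 cell genes, which mark the flat cells that carry gas exchange, all passed the filter and 17 fell, with a median of -0.61. Ager, the receptor for advanced glycation end products that marks type 1 cells, was at 1163, 1021, 1128, 1033 and 1249 CPM in the WT-OVA lungs, against 1440.5, 1444, 1612, 1566 and 1581 CPM in the WT-saline lungs (log2 fold change -0.45 ± 0.10 SE, adjusted p = 0.00101). Clic5, a chloride intracellular channel protein, was at 775, 594, 734, 655 and 751 CPM in the WT-OVA lungs, against 1389, 1180.0, 1399, 1308 and 1321 CPM in the WT-saline lungs (log2 fold change -0.91 ± 0.11 SE, adjusted p = 4.28e-06). Aqp5, the apical water channel of type 1 cells, was at 91.8, 63.5, 86.1, 71.4 and 96.8 CPM in the WT-OVA lungs, against 165, 147, 166, 156 and 149.7 CPM in the WT-saline lungs (log2 fold change -0.94 ± 0.11 SE, adjusted p = 2.32e-06). All 5 WT-OVA lungs were below all 5 WT-saline lungs for each. The summed type 1 list was 5757 to 7111 CPM in the WT-OVA lungs, against 9312 to 10651 CPM in the WT-saline lungs. Of the 25 type 2 cell genes, which make surfactant, 13 rose and 1, the lysozyme Lyz1, fell (median 0.29). The surfactant protein Sftpc, the defining type 2 marker, was level at 9235 ± 586 CPM in the WT-OVA lungs and 9310.5 ± 515 CPM in the WT-saline lungs (SD, n = 5 each), with a log2 fold change -0.01 ± 0.10 SE, adjusted p = 0.943. Genes of lipid synthesis and of defence were among those that rose. Scd1, the desaturase that makes monounsaturated fatty acids, was at 2429, 3109, 1967, 2147 and 1681 CPM in the WT-OVA lungs, against 995, 1531, 1131, 969 and 1145 CPM in the WT-saline lungs (log2 fold change 0.97 ± 0.18 SE, adjusted p = 2.58e-04). The surfactant lipid transporter Abca3 rose by 0.47 on the log2 scale, Fasn, the fatty acid synthase, by 0.57, Cxcl15, a lung chemokine, by 1.52 and Hc, complement component C5, by 1.29. Il33, the alarmin held in type 2 cells and fibroblasts, was at 107, 191, 90.4, 153 and 104 CPM in the WT-OVA lungs, against 45.7, 55.7, 42.9, 42.6 and 50.7 CPM in the WT-saline lungs (log2 fold change 1.44 ± 0.19 SE, adjusted p = 8.43e-06). Its lowest WT-OVA value lay above its highest saline value.

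**Figure D2:**
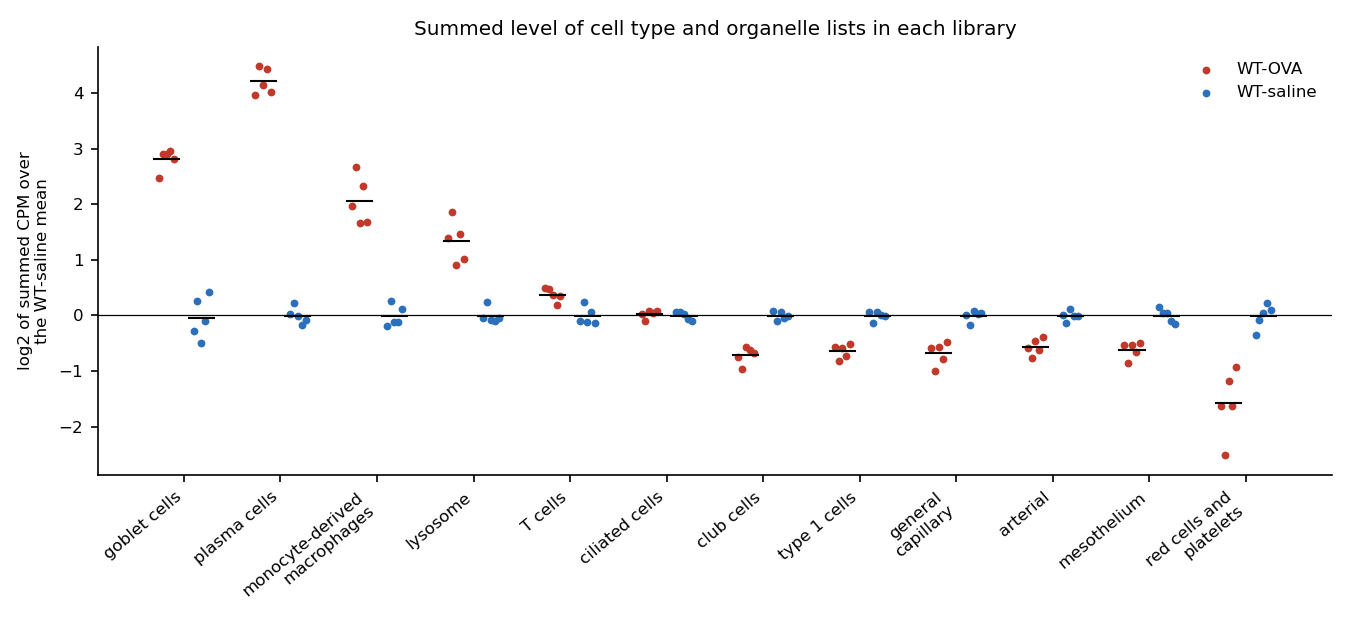
Summed CPM of cell type and organelle lists in each library, as log2 of the ratio to the WT-saline mean of that list (vertical axis), WT-OVA libraries left of WT-saline libraries, bars at the group means. The goblet cell, plasma cell, macrophage and lysosome lists were higher and the club, type 1, capillary, arterial, mesothelial and red cell lists lower in every WT-OVA lung than in any WT-saline lung, whereas the groups overlapped for ciliated and T cell lists.

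Epithelial transport and junction genes changed in part. Of 21 transport genes that passed the filter 4 rose and 7 fell. The 3 subunits of the epithelial sodium channel, which removes airway liquid, fell, Scnn1a by 0.90, Scnn1b by 0.78 and Scnn1g by 0.60 on the log2 scale. Among the risers were the potassium channel Kcnn4 (1.61) and the glucose cotransporter Slc5a1 (1.99). The chloride channel Cftr did not pass (log2 fold change 0.38, adjusted p = 0.0293). Of 22 junction genes 2 rose and 8 fell, among them Cldn18, the claudin of the alveolar barrier (-0.72), Tjp1 (-0.63) and Ocln (-0.67).

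Plasma cell genes rose throughout their list. All 19 listed plasma cell genes rose, with a median log2 fold change of 2.86. Jchain, which joins IgA and IgM into polymers, was at 1925, 2167, 2329, 2452 and 1631 CPM in the WT-OVA lungs, against 62.7, 116, 53.4, 38.01 and 49.6 CPM in the WT-saline lungs (log2 fold change 5.04 ± 0.26 SE, adjusted p = 3.97e-11). Mzb1, a chaperone for antibody chains, was at 88.6, 107, 105, 154 and 92.03 CPM in the WT-OVA lungs, against 5.87, 9.17, 4.35, 6.02 and 4.10 CPM in the WT-saline lungs (log2 fold change 4.21 ± 0.26 SE, adjusted p = 4.83e-10). The IgG1 constant region, Ighg1, averaged 10459.6 ± 2687 CPM in the WT-OVA lungs and 24.3 ± 22.7 CPM in the WT-saline lungs (SD, n = 5 each), and that of IgA, Igha, averaged 7060.4 ± 1288 CPM in the WT-OVA lungs and 269 ± 109 CPM in the WT-saline lungs (SD, n = 5 each). All immunoglobulin genes together made up 2.23% to 3.19% of the counts in the WT-OVA libraries, against 0.0507% to 0.103% in the WT-saline libraries. With these genes left out before scaling, 3011 genes were called. Of 187 immunoglobulin and T cell receptor segments tested, 168 were called higher. A segment could pass the filter on low counts through the OVA libraries alone, so this share was in part set by the filter.

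B cell genes rose together. All 15 were called (median 1.42), with Cd79a, a chain of the B cell receptor complex, at 70.2, 92.8, 73.99, 76.7 and 65.1 CPM in the WT-OVA lungs, against 25.9, 15.9, 14.6, 20.8 and 15.8 CPM in the WT-saline lungs (log2 fold change 2.03 ± 0.20 SE, adjusted p = 1.59e-07). Of 18 T cell genes, edgeR called 0 and limma-voom 0, while 4 had an unadjusted p under 0.05. DESeq2, which was run on the WT libraries only, called 6 higher. The median was 0.36, and 0.22 without WT-OVA library 10. Lck, the kinase next to the T cell receptor, averaged 32.8 ± 3.18 CPM in the WT-OVA lungs and 24.8 ± 2.95 CPM in the WT-saline lungs (SD, n = 5 each), with a log2 fold change 0.40 ± 0.28 SE, adjusted p = 0.28. Lck was called higher with edgeR on the WT libraries alone and with DESeq2. Of 18 T helper subset and regulatory T cell genes that passed, 5 rose and 1 fell. Pdcd1, an inhibitory receptor of activated T cells, rose by 1.88 on the log2 scale, and Tigit, another, by 2.28. Of 13 cytotoxic and NK cell genes that passed the filter 3 fell, among them Gzma, granzyme A (-1.04), and Prf1, perforin (-0.82). The other was Gzmb, granzyme B (-1.10), which was not called without WT-OVA library 11, 12 or 13, without WT-saline library 4 or 5 or without WT-saline libraries 2 and 5 together (adjusted p 0.0109 to 0.0141).

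Macrophage transcripts included rises to high levels. Mmp12, the macrophage elastase, was at 1105, 1508, 841, 1485 and 708 CPM in the WT-OVA lungs, against 4.22, 15.7, 7.71, 5.61 and 5.99 CPM in the WT-saline lungs (log2 fold change 7.16 ± 0.41 SE, adjusted p = 1.58e-10). Gpnmb, a glycoprotein of lipid-laden and phagocytic macrophages, was at 936, 2002, 288, 1044 and 475 CPM in the WT-OVA lungs, against 11.2, 9.70, 8.90, 6.44 and 8.82 CPM in the WT-saline lungs (log2 fold change 6.71 ± 0.47 SE, adjusted p = 2.01e-09). WT-OVA library 11 was the highest of the WT-OVA lungs for both. Chil3 (Ym1), a chitinase-like protein of alternatively activated mouse macrophages, was at 3894, 3070.0, 2156, 4274 and 2583 CPM in the WT-OVA lungs, against 51.7, 485, 90.8, 65.6 and 133 CPM in the WT-saline lungs (log2 fold change 4.27 ± 0.51 SE, adjusted p = 2.33e-06), with WT-saline library 2 well above the other saline lungs. Its near-identical neighbour Chil4 was at 27.2, 65.7, 46.1, 46.7 and 33.7 CPM in the WT-OVA lungs, against 0, 0, 0, 0.415 and 0.63 CPM in the WT-saline lungs (log2 fold change 7.51 ± 0.55 SE, adjusted p = 4.19e-09), and reads could have been shared between the pair. Arg1, the arginase of the same macrophage state, was at 29.97, 53.9, 37.1, 47.7 and 15.9 CPM in the WT-OVA lungs, against 1.10, 2.47, 0.989, 1.04 and 0.63 CPM in the WT-saline lungs (log2 fold change 4.87 ± 0.46 SE, adjusted p = 9.62e-08). Retnla (Fizz1), named after its values were seen, rose by 3.67 on the log2 scale. Trem2, a lipid receptor, rose by 4.04, Lgals3 (galectin-3) by 2.94 and Spp1 (osteopontin) by 2.03. Of the 21 genes of interstitial and monocyte-derived macrophages 17 rose (median 1.26).

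The list for resident alveolar macrophages was mixed. Of 15 genes that passed, 5 rose, among them Itgax (2.44) and the proton pump subunit Atp6v0d2 (2.57), and 3 fell, among them the lipid carrier Fabp1 (-2.41) and the carbonic anhydrase Car4 (-0.82), which capillary cells also express. The other was Ear1, an eosinophil-associated ribonuclease (-1.32), which was not called without WT-OVA library 10 or 13, without WT-saline library 1, 2, 3, 4 or 5 or without WT-saline libraries 2 and 5 together (adjusted p 0.0112 to 0.0258). The list median was -0.14, and 0.10 without WT-saline library 2, when 2 fell, and it lay between -0.24 and 0.10 over all the fits with 1 library left out. The lysosome rose with the macrophage genes. Of 30 lysosomal and proton pump genes 24 rose, and the summed level was 8096 to 15715 CPM in the WT-OVA lungs, against 4046 to 5092 CPM in the WT-saline lungs. Ctsk, cathepsin K, was at 345, 463, 157, 311 and 198 CPM in the WT-OVA lungs, against 14.3, 32.3, 14.8, 14.96 and 14.7 CPM in the WT-saline lungs (log2 fold change 4.01 ± 0.32 SE, adjusted p = 1.37e-08). Psap, the precursor of the saposins that break down sphingolipids, was at 3268, 4818, 2431, 3661 and 2402 CPM in the WT-OVA lungs, against 789, 1159, 787, 792 and 825 CPM in the WT-saline lungs (log2 fold change 1.93 ± 0.18 SE, adjusted p = 8.41e-08). Hexa (1.27), Lipa, the lysosomal acid lipase (1.13), and Npc2, a cholesterol carrier (0.66), rose too.

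The granulocyte lists rested on low counts. Members near 0 in the saline lungs could pass the filter through the OVA libraries alone, so the shares that rose were in part set by it. Of 8 eosinophil genes that passed 6 rose, and 3 without WT-OVA library 12 or 13, while 1, Ear1, fell. The eotaxin receptor Ccr3 was at 2.76, 10.3, 10.04, 10.11 and 6.01 CPM in the WT-OVA lungs, against 0.367, 0, 0.198, 0.831 and 1.10 CPM in the WT-saline lungs (log2 fold change 3.89 ± 0.63 SE, adjusted p = 7.11e-05). The eosinophil granule protein Prg2 rose by 4.76 and the interleukin-5 receptor chain Il5ra by 2.54 on the log2 scale. Alox15, the 15-lipoxygenase of eosinophils and macrophages, was called higher (log2 fold change 1.72 ± 0.45 SE, adjusted p = 0.00517), and was not called without WT-OVA library 11, 12 or 13, without WT-saline library 2, 3, 4 or 5, without WT-saline libraries 2 and 5 together, with DESeq2 or with the WT libraries alone (adjusted p 0.01 to 0.0473). Siglecf, present on eosinophils and alveolar macrophages and named after its values were seen, was not called (log2 fold change 0.59, adjusted p = 0.0186). Of 10 mast cell and basophil genes that passed, 5 rose and 1 fell. Of the mast cell proteases, Mcpt1, typical of mucosal mast cells, was at 2.98, 3.32, 3.28, 5.05 and 1.46 CPM in the WT-OVA lungs, against 0, 0, 0, 0 and 0.158 CPM in the WT-saline lungs (log2 fold change 5.78 ± 0.59 SE, adjusted p = 9.80e-07) and Mcpt2 rose by 4.72. These proteases are close paralogs, so their split is uncertain. Kit, the mast cell growth factor receptor, fell (-0.67), and capillary endothelium also expresses it. Of 9 neutrophil genes that passed, 2 were called. Retnlg, a resistin-like protein of neutrophils, rose (2.86). Lcn2, a siderophore-binding protein, was called too (log2 fold change 1.44), but not without WT-saline library 1, 3, 4 or 5 or WT-OVA library 10, 11 or 13, when its adjusted p was 0.013 to 0.0251.

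Most cytokine transcripts had counts too low for the filter. Of the 13 type 2 cytokines and alarmins, 3 passed the filter and Il33 was the one called. Il4 had 3, 2, 5, 2 and 1 counts in the WT-OVA lungs and 0, 0, 2, 0 and 0 counts in the WT-saline lungs (two-sided exact p = 0.0317 by permutation of the libraries, 0.273 after adjustment over the 132 list members under the filter). Il21 had 15 counts in the WT-OVA lungs in all and 4 in the WT-saline lungs (exact permutation p = 0.0476, adjusted 0.273). Summed over the WT-OVA lungs against the WT-saline lungs, Il13 had 9 counts against 6 (exact p = 0.683), Il5 had 3 against 7 (exact p = 0.222), Il10 had 13 against 10 (exact p = 0.524), Tslp 10 against 21 (exact p = 0.0714) and Il31 3 against 3 (exact p = 1). Il3, Il9 and Il25 had 0 counts in all 10 libraries. Of the type 1 and type 17 cytokines, Ifng had 5 counts in the WT-OVA lungs against 14 in the WT-saline lungs (exact p = 0.0794), Il17a 5 against 0 (exact p = 0.167), Il6 13 against 8 (exact p = 0.405), Il12a 19 against 30 (exact p = 0.325), Il12b 10 against 19 (exact p = 0.325), Il27 4 against 7 (exact p = 0.341), Il17f 0 against 3 (exact p = 0.444), Il22 2 against 0 and Il23a 2 against 0 (exact p = 1 for both). The smallest p this test could give with 5 against 5 libraries was 0.00794. Genes at that p had an adjusted p of 0.21, so this test could not have called any of these cytokines, whatever the size of its difference.

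Genes downstream of interleukin-4 and interleukin-13 were easier to measure. Of the 23 listed targets of Stat6 that passed, 12 rose and 2 fell (median 0.65, or 1.11 without WT-saline libraries 2 and 5). They span the epithelium (Clca1, Slc26a4), macrophages (Chil3, Arg1) and stroma. The list shares genes with the mucus, transport, macrophage and chemokine lists, so its count is not separate from theirs. Ccl11, eotaxin-1, which recruits eosinophils, was at 15.3, 33.6, 12.3, 28.6 and 16.04 CPM in the WT-OVA lungs, against 2.02, 4.41, 1.78, 2.08 and 3.15 CPM in the WT-saline lungs (log2 fold change 2.95 ± 0.36 SE, adjusted p = 3.14e-06). Il13ra2, the decoy receptor for interleukin-13, named after its values were seen, was under the filter, with 2, 6, 1, 4 and 1 counts in the WT-OVA lungs and 0 counts in each WT-saline lung, at least 4.77-fold higher against 3 counts over the saline group (exact permutation p = 0.00794, adjusted 0.21). The receptor chain and the factor themselves, named after their values were seen, were not called. Il4ra averaged 247 ± 22.1 CPM in the WT-OVA lungs and 243 ± 26.1 CPM in the WT-saline lungs (SD, n = 5 each) and Stat6 205 ± 16.3 CPM in the WT-OVA lungs and 196 ± 15.5 CPM in the WT-saline lungs (SD, n = 5 each). Stat6 binds the palindrome TTCNNNNGAA, which was searched in the 250 bases before each RefSeq start (GRCm38.p6), where a match on one strand is a match on both. The Stat6 motif was found for 3 of the 19 listed targets with a promoter in the reference, Retnla, Ccl17 and Fcer2a. It was found in 5.85% of all 32851 promoters of that length, and for 5.64% of the 10862 genes tested that have one. The stretch upstream of Retnla, at chr16:48842454-48842483 on the plus strand with the match in capitals, is shown because Retnla rose 12.7-fold.
Retnla: agaatcataaTTCACAAGAAattgctaaac

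Chemokine and antigen presentation genes rose in part. Of 22 chemokine genes that passed 8 rose, among them Ccl11, Ccl9 (2.36) and Ccl6 (2.35), and Cx3cl1, fractalkine, fell (-0.55). Of 13 MHC class II genes 10 rose, with Cd74, the invariant chain, at 1706, 2131, 1841, 1835 and 1895 CPM in the WT-OVA lungs, against 913, 1766, 949.8, 969 and 1043 CPM in the WT-saline lungs (log2 fold change 0.74 ± 0.17 SE, adjusted p = 0.00169). The 1766 CPM of WT-saline library 2 overlapped the WT-OVA range. Of 22 complement genes 8 rose and 3 fell, and 5 rose without WT-OVA library 11 or WT-saline library 1, 3 or 4. C3, the central component, was at 2900.1, 4479, 3025, 3727 and 3139 CPM in the WT-OVA lungs, against 1183, 2541, 1283, 1309.7 and 1609.6 CPM in the WT-saline lungs (log2 fold change 1.12 ± 0.21 SE, adjusted p = 3.74e-04), and C3ar1, the receptor of its C3a fragment, rose by 2.21. Of 25 interferon-stimulated genes that passed, 3 fell, a share near the background of lower genes, among them Ifit3 (-1.11) and Ifit2 (-0.81), and the median was -0.49, or -0.28 without WT-saline library 2 and -0.23 without libraries 2 and 5. The other, Rsad2 (viperin, -1.02), was not called without WT-OVA library 11, 12 or 13, without WT-saline library 4 or 5 or without WT-saline libraries 2 and 5 together (adjusted p 0.0115 to 0.0164).

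Vascular transcripts fell across the capillary and arterial lists. Of 21 genes of general capillary cells 14 fell (median -0.63), of 18 genes of aerocytes, the capillary cells apposed to type 1 cells, 14 fell (median -0.69) and of 20 arterial and Notch genes 11 fell (median -0.54). Ace, the angiotensin-converting enzyme on lung capillaries, was at 1129, 942, 1182, 1056 and 1289 CPM in the WT-OVA lungs, against 1873, 1741, 2079.9, 1996 and 2094 CPM in the WT-saline lungs (log2 fold change -0.81 ± 0.15 SE, adjusted p = 2.72e-04). Epas1 (HIF-2α), highly expressed in lung endothelium, was at 3439, 2751, 3889, 3204 and 4018 CPM in the WT-OVA lungs, against 5118, 4836, 5877, 5532 and 5535 CPM in the WT-saline lungs (log2 fold change -0.64 ± 0.13 SE, adjusted p = 7.66e-04). Ptprb, the endothelial phosphatase VE-PTP, was at 1770.0, 1153, 1709, 1513 and 1809 CPM in the WT-OVA lungs, against 2694, 2253, 2828, 2727 and 2748 CPM in the WT-saline lungs (log2 fold change -0.74 ± 0.15 SE, adjusted p = 7.42e-04). The groups did not overlap for any of them. Sema3c, a guidance factor, fell by 1.06 on the log2 scale, and the angiopoietin receptor Tek by 0.84. Ednrb, the endothelin receptor of aerocytes, fell by 0.89, and Kdr, VEGF receptor 2, by 0.64. Of 31 pan-endothelial genes 15 fell and 1 rose, though none rose in most fits with a library left out, with a median of -0.41. Among those not called were Cdh5 (log2 fold change -0.34, adjusted p = 0.0666) and Pecam1 (-0.41, adjusted p = 0.0266). With edgeR on the WT libraries alone Pecam1 was called lower, and DESeq2 on the same libraries called both lower.

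Venous genes were called at about the background share. Of 19 venous and activation genes, 2 rose and 2 fell, near the 12% higher and 9.95% lower over all genes tested. Their summed level was 2181 to 2508 CPM in the WT-OVA lungs, against 2089.5 to 2245 CPM in the WT-saline lungs. Vwf averaged 926 ± 93.5 CPM in the WT-OVA lungs and 776 ± 32.6 CPM in the WT-saline lungs (SD, n = 5 each), adjusted p = 0.0237. Lrg1, a glycoprotein made by activated venous endothelium and by neutrophils, was at 182, 244, 107, 138 and 141 CPM in the WT-OVA lungs, against 34.5, 52.2, 34.6, 24.5 and 32.3 CPM in the WT-saline lungs (log2 fold change 2.19 ± 0.23 SE, adjusted p = 4.97e-07). Among angiogenic factors Vegfa, made mainly by type 1 cells in the alveolus, was at 671, 526, 641, 536 and 706 CPM in the WT-OVA lungs, against 1109, 881, 1063, 925 and 905 CPM in the WT-saline lungs (log2 fold change -0.66 ± 0.11 SE, adjusted p = 1.29e-04). Vegfd fell by 1.15 on the log2 scale, and in all 21 of 32 genes of that list fell while 2 rose. The rises were those of Vegfb, a VEGF family ligand (0.37), which was not called without WT-saline libraries 2 and 5 together (adjusted p = 0.0174), and of Nrp2, a co-receptor of semaphorins and VEGF-C (0.37), which was not called without WT-OVA library 10, 11 or 13 or without WT-saline library 3, 4 or 5 (adjusted p 0.0115 to 0.0173).

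Red cell transcripts moved in the same direction as the vascular ones. The haemoglobin gene Hbb-bs was at 700.0, 353, 937, 683 and 1097 CPM in the WT-OVA lungs, against 1739, 2150.1, 2167, 2510.4 and 2334 CPM in the WT-saline lungs (log2 fold change -1.53 ± 0.33 SE, adjusted p = 0.00111), the summed red cell and platelet list was 859.6 to 2585 CPM in the WT-OVA lungs, against 3857 to 5756 CPM in the WT-saline lungs, and the platelet factor Pf4, named after its values were seen, was not called (log2 fold change 0.17, adjusted p = 0.62). Cardiac muscle genes, which in mouse lung come from the sleeves of the pulmonary veins, had a summed level of 466 to 996 CPM in the WT-OVA lungs, against 865 to 1460.2 CPM in the WT-saline lungs, and 6 of 20 fell, against none without WT-saline libraries 2 and 5. The part that residual blood or the cut of the tissue had in the vascular falls was not tested.

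**Figure D3:**
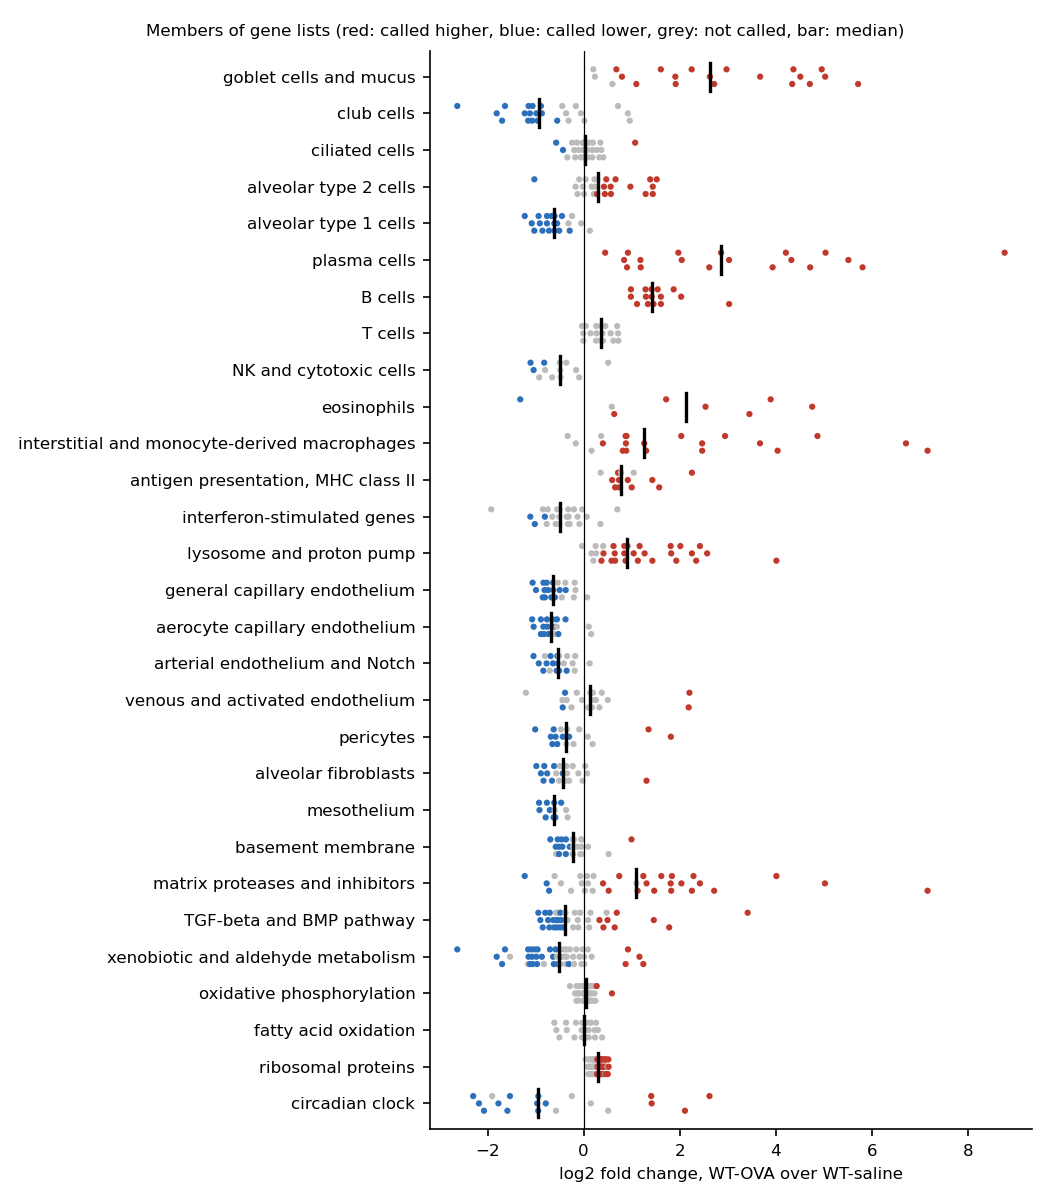
Log2 fold change (WT-OVA over WT-saline, horizontal axis) of each member that passed the filter, in one row for each gene list, with members called higher and lower coloured, uncalled members grey and the list median as a bar. Most members of the goblet, plasma cell, lysosome and macrophage rows lie right of 0, and most of the capillary, type 1, club and mesothelial rows left of it.

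Stromal cells shared part of the fall. Of 12 mesothelial genes, which mark the pleural lining, 9 fell, with Upk3b at 39.97, 25.6, 39.4, 35.7 and 42.3 CPM in the WT-OVA lungs, against 75.7, 70.5, 73.4, 69.8 and 58.6 CPM in the WT-saline lungs (log2 fold change -0.93 ± 0.12 SE, adjusted p = 6.46e-06). Of 21 alveolar fibroblast genes 8 fell, among them Inmt (-0.89) and the integrin Itga8 (-0.82), and Plin2, which coats lipid droplets and is also a macrophage gene, rose (1.31). Of 17 pericyte genes 8 fell, whereas Rgs5 (1.82) and the laminin receptor chain Itga7 (1.35) rose. Smooth muscle genes were mostly level. Of 20 that passed 17 were not called, 1 rose and 2 fell, with Mylk, the myosin light chain kinase, at 739 ± 33.3 CPM in the WT-OVA lungs and 827 ± 53.6 CPM in the WT-saline lungs (SD, n = 5 each), adjusted p = 0.101 and Acta2, smooth muscle actin, named after its values were seen, at 147 ± 13.2 CPM in the WT-OVA lungs and 135 ± 9.13 CPM in the WT-saline lungs (SD, n = 5 each), adjusted p = 0.353.

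Matrix genes moved in both directions. Of 26 fibrillar collagen and modifier genes 5 rose and 3 fell, and of 18 elastic fibre genes 3 rose and 4 fell. Of 30 matricellular genes 5 rose and 10 fell, with 3 higher without WT-OVA library 13 or 14 or WT-saline library 3, 4 or 5. Eln, tropoelastin, was at 399, 345, 504, 502 and 487 CPM in the WT-OVA lungs, against 149, 171, 204, 153 and 207 CPM in the WT-saline lungs (log2 fold change 1.34 ± 0.28 SE, adjusted p = 9.80e-04). Col3a1, the chain of fibrillar collagen III, was at 722, 883, 968, 968 and 849 CPM in the WT-OVA lungs, against 375, 558, 435, 445 and 463 CPM in the WT-saline lungs (log2 fold change 0.95 ± 0.15 SE, adjusted p = 5.43e-05). Collagen I did not pass in the main fit. Col1a1 was, however, called higher with edgeR on the WT libraries alone (log2 fold change 0.50, adjusted p = 0.00106) and with DESeq2 on the same libraries. Col1a2 averaged 614 ± 70.4 CPM in the WT-OVA lungs and 556 ± 43.8 CPM in the WT-saline lungs (SD, n = 5 each), adjusted p = 0.366 and Col1a1, named after its values were seen, 521 ± 66.7 CPM in the WT-OVA lungs and 368 ± 43.5 CPM in the WT-saline lungs (SD, n = 5 each), adjusted p = 0.0204. Col24a1, a minor fibrillar collagen, was at 25.1, 32.5, 28.7, 32.9 and 24.8 CPM in the WT-OVA lungs, against 0.733, 1.94, 0.593, 2.49 and 1.42 CPM in the WT-saline lungs (log2 fold change 4.31 ± 0.31 SE, adjusted p = 2.79e-09), and Loxl1, which crosslinks elastin, rose by 0.98 on the log2 scale. Col12a1, a collagen that decorates fibrils, fell, at 45.3, 24.2, 40.4, 32.6 and 45.7 CPM in the WT-OVA lungs, against 123, 104, 125, 117 and 119 CPM in the WT-saline lungs (log2 fold change -1.65 ± 0.15 SE, adjusted p = 6.05e-08). In the basement membrane list 10 of 25 fell and 1 rose, among them Nid1 (-0.58) and Agrn (-0.46), with 6 lower without WT-saline library 3, and Col4a1 was not called (0.09). Tnxb, tenascin-X, fell (-1.27), whereas Tnc, tenascin-C, rose (1.14). The matricellular genes Ctgf (-1.21) and Cyr61 (-1.29), targets of the YAP pathway, fell.

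Of 33 matrix protease and inhibitor genes that passed 19 rose and 3 fell. The list holds macrophage genes, the cathepsins and Mmp12 among them. Mmp14, a membrane metalloproteinase, rose by 1.24, and Timp3, the matrix-bound inhibitor, was at 83.1, 70.1, 95.1, 101 and 113 CPM in the WT-OVA lungs, against 208, 208, 228, 223 and 216 CPM in the WT-saline lungs (log2 fold change -1.23 ± 0.14 SE, adjusted p = 1.17e-06). In the TGF-β and BMP list 8 of 37 genes rose and 16 fell, with 5 higher without WT-saline libraries 2 and 5. Tgfb1 rose (0.50) and Inhba, the activin A subunit, was at 35.7, 17.9, 8.20, 29.1 and 25.5 CPM in the WT-OVA lungs, against 2.93, 1.94, 2.57, 1.87 and 1.58 CPM in the WT-saline lungs (log2 fold change 3.41 ± 0.36 SE, adjusted p = 4.17e-07). Bmpr2, a BMP receptor whose loss causes pulmonary hypertension in humans, fell, at 1170.1, 800.2, 1095, 939 and 1148 CPM in the WT-OVA lungs, against 1923, 1566, 1852, 1820.3 and 1798 CPM in the WT-saline lungs (log2 fold change -0.80 ± 0.14 SE, adjusted p = 1.96e-04). The receptor Acvrl1 (-0.56) and the type III receptor Tgfbr3 (-0.85) fell too. Of 34 Wnt and Hedgehog genes that passed 12 fell, including the receptor Fzd4 (-0.84), or 7 without WT-saline library 3 or 5, and Sfrp1, a secreted antagonist, rose (0.92).

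Oxidation of foreign compounds was the metabolic function with most falls. Of 48 genes for xenobiotic and aldehyde metabolism that passed 23 fell and 4 rose (median -0.52), and the summed level was 4384 to 5458 CPM in the WT-OVA lungs, against 8724 to 9826 CPM in the WT-saline lungs. The list shares genes with the club cell list. Without WT-OVA library 11, 13 or 14 or WT-saline library 3 or 4, 2 rose. Pon1, paraoxonase 1, was at 4.68, 2.95, 7.38, 2.96 and 2.73 CPM in the WT-OVA lungs, against 23.8, 19.9, 18.6, 26.8 and 17.3 CPM in the WT-saline lungs (log2 fold change -2.37 ± 0.23 SE, adjusted p = 1.19e-07). Cyp1b1, a cytochrome P450 of stromal and myeloid cells, rose (1.24). Oxidative phosphorylation and fatty acid oxidation genes changed little, whereas part of the glycolytic and pentose phosphate genes rose. Of 41 oxidative phosphorylation genes 2 were called and the median was 0.04. Of 24 fatty acid oxidation genes edgeR called 0, DESeq2 0 and limma-voom 0, while 5 with a positive and 4 with a negative change had an unadjusted p under 0.05, with a median of 0.00. Of 23 glycolytic genes 9 rose and 1 fell, with the largest rise in the myeloid hexokinase Hk3 (2.08), and of 10 pentose phosphate and NADPH genes 6 rose, with Me1, malic enzyme, at 0.84 on the log2 scale. The glycolytic count was 3 without WT-OVA library 11, 4 without WT-saline library 4 and 5 without WT-saline library 3.

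Lipid, iron and eicosanoid genes changed in part. Of 18 cholesterol efflux and lysosomal lipid genes 8 rose. Of 28 antioxidant and iron genes 8 rose and 4 fell, with 2 lower without WT-saline library 5. Of 24 prostanoid and leukotriene genes 7 rose and 4 fell, and their summed level was 1749.9 to 2283 CPM in the WT-OVA lungs, against 2928 to 3601 CPM in the WT-saline lungs. Ch25h, which makes 25-hydroxycholesterol, rose by 2.51, and Slc7a11, the cystine importer, was at 66.5, 80.6, 42.6, 73.2 and 29.3 CPM in the WT-OVA lungs, against 4.40, 6.17, 2.77, 2.91 and 5.04 CPM in the WT-saline lungs (log2 fold change 3.75 ± 0.30 SE, adjusted p = 1.07e-08). Ftl1, a ferritin chain, rose (1.08), and Tfrc, the transferrin receptor, fell (-0.97). The heavy ferritin chain Fth1 was called higher (0.43), but not without WT-OVA library 10 or 11, without WT-saline library 1, without WT-saline libraries 2 and 5 together or with the WT libraries alone (adjusted p 0.0105 to 0.0148). Hpgd, which inactivates prostaglandins, fell, at 113, 56.3, 75.02, 56.98 and 89.7 CPM in the WT-OVA lungs, against 222, 197, 218, 234 and 213 CPM in the WT-saline lungs (log2 fold change -1.48 ± 0.28 SE, adjusted p = 3.90e-04). Ptges, the inducible prostaglandin E synthase, rose (1.26), and so did Alox12e, an epithelial lipoxygenase (3.52). Nos2, inducible nitric oxide synthase, rose by 1.78, and Slc7a2, an arginine transporter, by 1.39. Protein synthesis genes shifted by small steps in one direction. Of 74 ribosomal protein genes 38 rose, with a median of 0.31. In the secretory pathway 21 of 43 genes rose, with Hsp90b1, the chaperone GRP94, at 916, 1035, 1047, 1515 and 1224 CPM in the WT-OVA lungs, against 456, 604, 569.6, 654 and 689 CPM in the WT-saline lungs (log2 fold change 0.95 ± 0.19 SE, adjusted p = 6.55e-04).

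The core clock changed in both directions. Of 19 clock genes 4 rose and 10 fell. Arntl (Bmal1), the activator that drives the clock, was at 35.3, 27.7, 29.9, 27.2 and 26.8 CPM in the WT-OVA lungs, against 3.12, 9.17, 4.15, 7.69 and 9.45 CPM in the WT-saline lungs (log2 fold change 2.11 ± 0.40 SE, adjusted p = 3.77e-04). Its partner Npas2 was at 36.99, 36.7, 21.1, 27.2 and 20.8 CPM in the WT-OVA lungs, against 2.75, 4.76, 2.37, 4.78 and 8.03 CPM in the WT-saline lungs (log2 fold change 2.62 ± 0.47 SE, adjusted p = 2.18e-04). Both were higher in every WT-OVA lung. The repressor Per2 was at 34.4, 60.1, 93.9, 98.1 and 104 CPM in the WT-OVA lungs, against 313, 329, 383, 389 and 357 CPM in the WT-saline lungs (log2 fold change -2.18 ± 0.34 SE, adjusted p = 4.60e-05). Per3 (-2.07), Per1 (-0.94) and Cry2 (-0.94) fell, as did the output factors Tef (-1.77), Hlf (-2.30) and Nr1d2 (-1.53). Dbp, an output factor named after its values were seen, was not called (log2 fold change -1.90 ± 0.78 SE, adjusted p = 0.0652). It was called lower with edgeR on the WT libraries alone and with DESeq2. The activators bind the E-box CACGTG, which reads alike on both strands. It was found in the 250 bases upstream of the start for 5 of 16 clock genes with a promoter in the reference and in 6.02% of all promoters, 9.42% of the 10862 genes tested that have one. A site upstream of each of 4 clock genes is shown, from genes that moved in opposite directions, with the E-box in capitals: Per1 at chr11:69098771-69098800 and Tef at chr15:81802534-81802563 on the plus strand, and Cry1 at chr10:85185097-85185126 and Bhlhe41 at chr6:145865556-145865585 on the minus strand.
Per1: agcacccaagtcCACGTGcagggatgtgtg
Tef: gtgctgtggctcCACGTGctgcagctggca
Cry1: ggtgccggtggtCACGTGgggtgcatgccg
Bhlhe41: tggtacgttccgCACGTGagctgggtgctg
Bhlhe41, a repressor, rose (1.41), whereas Per1 and Tef fell, as did the repressor Cry1 (log2 fold change -0.97, adjusted p = 4.00e-05), named after its values were seen. The sources used here do not give the hour at which each lung was taken, so its part in these differences was not tested.

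**Figure D4:**
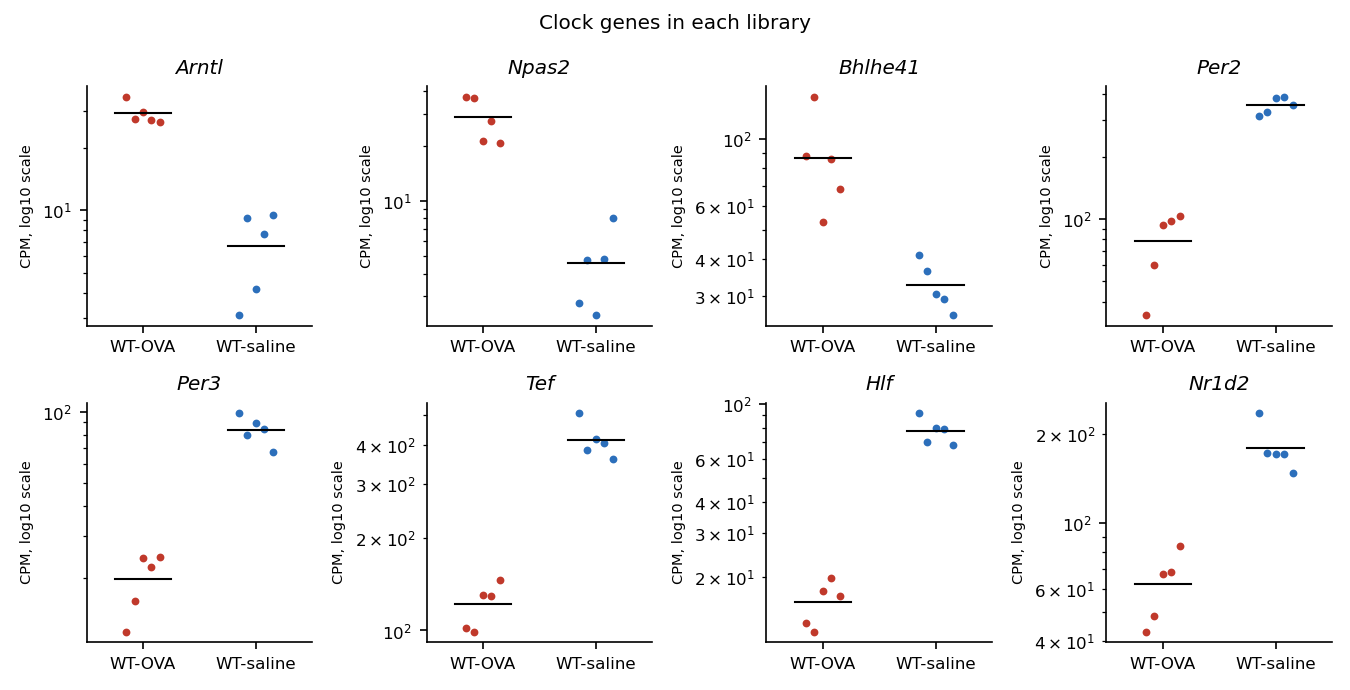
CPM of 8 clock genes in each library on a log10 scale (vertical axis), WT-OVA lungs left of WT-saline lungs, bars at the group means. Arntl and Npas2 were higher and Per2, Per3, Tef, Hlf and Nr1d2 lower in each of the 5 WT-OVA lungs than in any WT-saline lung.

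Several glucocorticoid-responsive genes fell. Tsc22d3 (GILZ), a glucocorticoid-induced gene, was at 246, 166, 216, 228 and 211 CPM in the WT-OVA lungs, against 381, 525, 612, 549 and 570.3 CPM in the WT-saline lungs (log2 fold change -1.31 ± 0.25 SE, adjusted p = 4.27e-04). Klf9, also induced by glucocorticoids, fell (-0.73), as did the receptor Nr3c1 (-0.46). The list joins glucocorticoid-responsive and metallothionein genes. In all 8 of its 17 genes that passed fell and 2 were called higher, with 5 lower without WT-OVA library 11 or without WT-saline libraries 2 and 5. Glul, glutamine synthetase, was among them (-0.71), but was not called without WT-OVA library 11 or without WT-saline libraries 2 and 5 together (adjusted p 0.0117 to 0.0226). Sgk1, a kinase induced by glucocorticoids, was called higher (0.50), but not without WT-OVA library 10, 11, 13 or 14, without WT-saline library 1, 2, 3, 4 or 5, without WT-saline libraries 2 and 5 together, with upper-quartile factors or with limma-voom (adjusted p 0.0108 to 0.0365). Of 19 heat shock genes 2 fell. Of 24 immediate-early genes 2 rose, among them Atf3, a stress transcription factor (1.75), and 5 fell. The lower count was 1 without WT-saline library 1, 2 without WT-OVA library 11 or 14 or WT-saline library 2 or 5, and 3 without WT-OVA library 12 or WT-saline library 3. The proliferation marker Mki67 was at 183, 241, 188, 249.5 and 177 CPM in the WT-OVA lungs, against 47.7, 132, 60.3, 103 and 89.2 CPM in the WT-saline lungs (log2 fold change 1.26 ± 0.27 SE, adjusted p = 0.00108), and of 33 mitosis genes 7 were called higher and 1 lower. Without WT-saline library 2 there were 11 higher, without WT-OVA library 11 or 13 or WT-saline library 1 or 3 there were 3, and without WT-OVA library 12 there were 4. DESeq2, run on the WT libraries only, called 21 higher and limma-voom 7.

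Antigen receptor genes aside, some genes that the saline lungs held at or near 0 also rose. Such genes could pass the filter through the OVA libraries alone. Mrgprg, a receptor of the Mas-related family, was at 2.13, 7.01, 3.28, 3.49 and 4.37 CPM in the WT-OVA lungs, against 0, 0, 0, 0 and 0 CPM in the WT-saline lungs. Prss46, a serine protease, was at 1.91, 5.35, 0.615, 1.92 and 2.19 CPM in the WT-OVA lungs, against 0, 0, 0, 0 and 0 CPM in the WT-saline lungs. With 0 counts over the 5 saline lungs, the rises were at least 36.96-fold for Mrgprg and at least 21.8-fold for Prss46 against a floor of 3 counts over that group. The neuropeptide Npy was at 34.2, 44.8, 6.56, 30.7 and 18.6 CPM in the WT-OVA lungs, against 0.183, 0.176, 0.395, 0 and 1.10 CPM in the WT-saline lungs (adjusted p = 1.90e-07). Tm4sf19, a tetraspan membrane protein, rose by 5.71 and Slc6a12, a betaine transporter, by 7.12 on the log2 scale. Rph3a, a rabphilin of secretory vesicles, was also at 0 in every saline lung (at least 17.9-fold higher), as was Psca, a surface antigen of mucous epithelium (at least 17.3-fold higher), whose WT-OVA values rested on 1 to 29 counts. Among the largest falls, Htr2c, a serotonin receptor, was at 0, 0, 0.615, 0.349 and 0.364 CPM in the WT-OVA lungs, against 4.22, 3.70, 2.97, 2.08 and 3.47 CPM in the WT-saline lungs (log2 fold change -3.52 ± 0.50 SE, adjusted p = 1.88e-05), and Cyp26b1, which degrades retinoic acid, was at 7.02, 9.22, 31.2, 13.8 and 27.7 CPM in the WT-OVA lungs, against 48.8, 58.7, 118, 86.2 and 51.4 CPM in the WT-saline lungs (log2 fold change -2.02 ± 0.45 SE, adjusted p = 0.00157). Vstm2a (-2.74), Unc5d (-2.37) and Gabrq (-2.03) fell at similarly low levels.

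**Figure D5:**
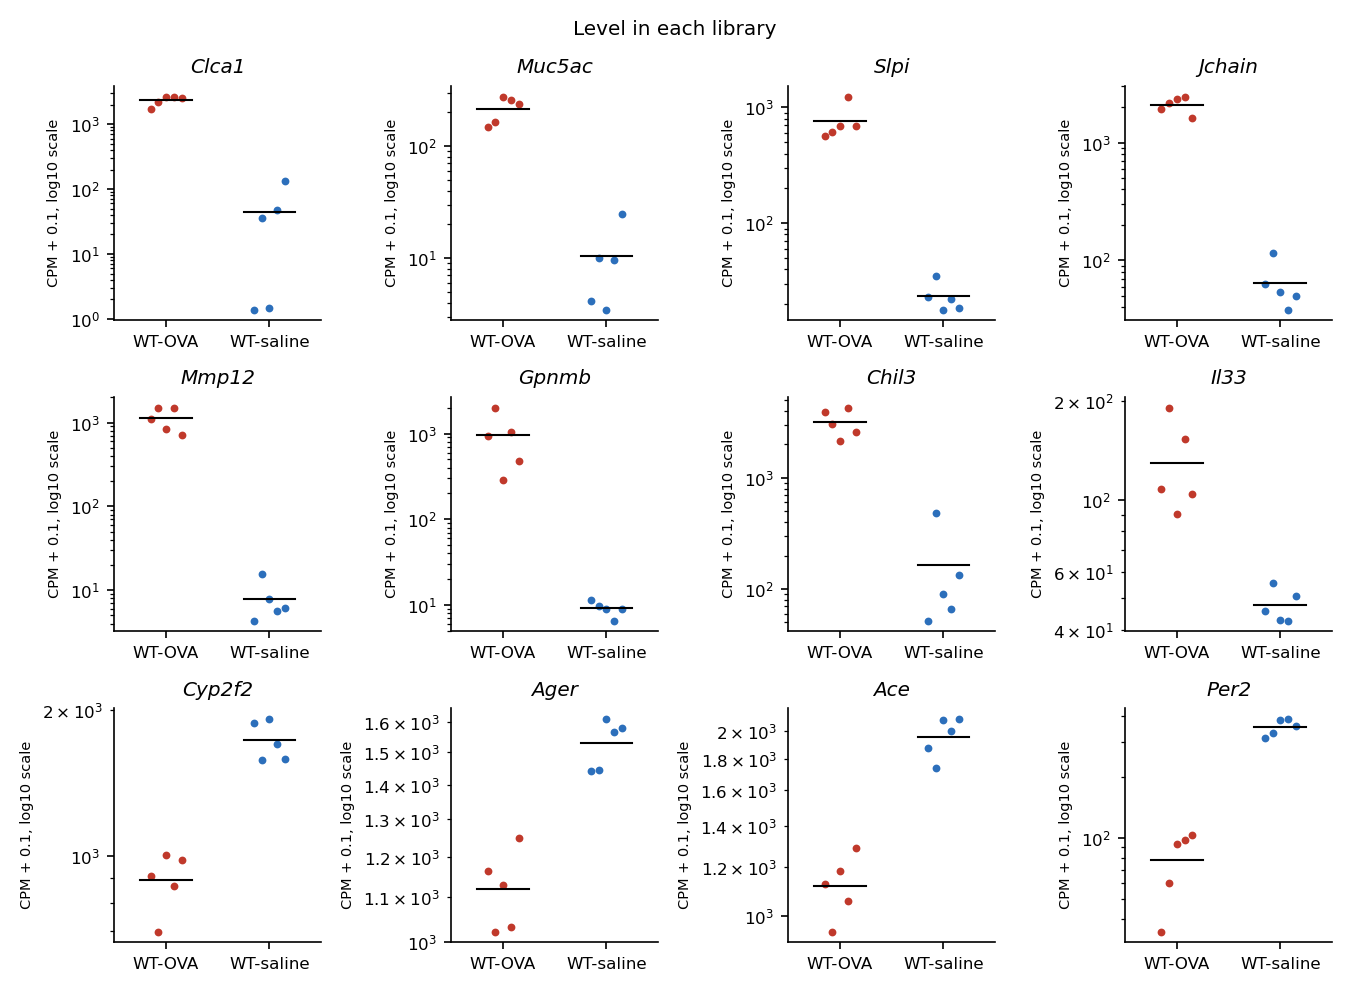
CPM in each library (vertical axis, log10 scale after adding 0.1) of 12 genes, WT-OVA lungs left of WT-saline lungs, bars at the group means. Clca1, Muc5ac, Slpi, Jchain, Mmp12, Gpnmb, Chil3 and Il33 were higher and Cyp2f2, Ager, Ace and Per2 lower in all 5 WT-OVA lungs than in any WT-saline lung. For genes picked by the size of their change, groups that did not overlap were a condition of the choice.

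The same contrast in Has2+/- mice, which shares no library with it, was read beside it. The Has2+/- contrast called 2643 of the 14495 genes tested, in both directions together. How many of all genes tested had the same sign in both contrasts was not counted. Of the 1733 genes called higher in WT lungs, 1242 were also called higher in Has2+/--OVA against Has2+/--saline lungs, and 1723 had the same sign. Of the 1442 genes called lower in WT lungs, 828 were called lower there and 1436 had the same sign. None was called in the opposite direction. The test of the difference itself, the interaction of genotype and OVA, called 0 genes with edgeR and 0 with limma-voom, and 594 genes were under an unadjusted p of 0.05, a number below 5% of the genes tested, 725.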

How the data were processed

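Whole-lung RNA was sequenced in 19 libraries, named here by their running number. The levels given are those of the 10 WT libraries, whereas all 19 entered the filter, the scaling and the estimate of the spread. The deposited table holds raw counts per gene for 49585 genes, which the authors obtained by mapping paired-end reads to the mouse genome and counting per gene in CLC Genomics Workbench. The labels and the methods of the study describe ribosomal RNA depletion with a directional kit. The design text instead names a stranded mRNA kit, and that difference was not resolved here. The table also holds 38 columns of normalized values per library and the authors' own fold changes and p-values, none of which was used. Groups came from the sample labels and from the group prefix of the columns. The labels number the mice of a group but do not say how they were housed or processed, so p-values measure the spread between these samples.

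Counts were tested with edgeR 4.0.16 (R 4.3.3): filterByExpr (minimum count 10, minimum total 15), TMM factors, 1 mean per group over all 4 groups, and quasi-likelihood tests of WT-OVA minus WT-saline. The cutoffs of the study, adjusted p under 0.01 with a fold above 1.2, decided the calls. The test was checked on simulated data. Genes under the filter were compared by a two-sided exact permutation test of mean CPM over 252 divisions of the libraries. Motif windows came from RefSeq promoters. Alternatives were DESeq2 1.42.0, run on the 10 WT libraries only (no adjusted p for 9 genes), and limma-voom (limma 3.58.1) on all libraries. The others were edgeR with other scalings, filters and thresholds, with the WT libraries alone, and with each WT library left out in turn. Leaving out WT-saline libraries 2 and 5 together was added after seeing the data.

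The comparison, the gene lists and the naming rule were chosen with earlier results of these data known, so lists are described by counts and medians with no test. Named genes are the 15 largest rises and falls among called genes whose groups did not overlap, without antigen receptor segments and predicted genes, the same 10 and 10 at a mean of at least 100 CPM, up to 4 called members per list and direction with the smallest p, up to 2 members per list with the highest level, and all cytokines under the filter. Of the 444 genes this covers, those that carry each comparison are described, and some are not reported here. Genes outside the rule are said to be named after their values were seen. Haemoglobin, Chil3 and Chil4, carboxylesterase, mast cell protease, MHC and immunoglobulin genes have near-identical relatives, and reads could be split among them.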

Additional observations from a re-analysis of the deposited data

Results flagged for a closer look

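Values of 1 library that lay far from the other 4 of its group were looked for in the named genes and in the summed lists. Of 540 group tests, 50 passed Dixon's 95% critical ratio of 0.71. Chance gives about 1 in 20 for normally distributed values, and CPM were used here without a log. Fut1, Mcpt1 and Slc6a12 were at 0 CPM in the other 4 saline lungs, so any read set their ratio. WT-saline library 2 held 23 of them. It was the highest saline lung for Arg1 (2.47 CPM), Ccl6 (57.7), Cd74 (1766), Cftr (40.02), Chil3 (485), Ctsk (32.3), Fut1 (0.353), Hk3 (20.1), Itgax (125), Lcn2 (236), Pdcd1 (3.70) and Psap (1159), and the lowest for Mylk (734), Ptprb (2253), Prf1 (11.3), Tgfbr3 (221) and Tjp1 (639). Its summed lists stood apart for resident alveolar macrophages (1148 CPM), complement (4659), MHC class II (3681) and lysosome (5092) on the high side, and for aerocytes (4353) and smooth muscle (2965) on the low side.

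WT-OVA library 11 stood apart for Gp2 (12.4 CPM), Itln1 (31.2), Ptges (55.9), Slc26a4 (234) and Nr3c1 (203), and in the summed lists of glycolysis (2307 CPM), pentose phosphate genes (897) and lymph node stroma and thymus genes (86.7). WT-OVA library 13 stood apart for Mzb1 (154 CPM), Nos2 (62.7) and Slpi (1239), WT-OVA library 10 for Bpifb1 (145), Vegfb (24.9) and the immediate-early list (2574), and WT-OVA library 14 for Cftr (31.9). Among the other saline lungs, library 1 stood apart for Alox15 (21.3 CPM), Fth1 (1097), Glul (458), Cyr61 (221), Dbp (116) and the fibrillar collagen list (2691), library 3 for Slc6a12 (0.198) and the adventitial fibroblast list (3830), library 4 for Tm4sf19 (0.623), and library 5 for Mcpt1 (0.158), Tgfb1 (96.9) and the skeletal muscle list (359).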

How the results depend on the processing

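The 3175 called genes of the WT comparison (1733 higher, 1442 lower) numbered 2464 to 3164 with 1 library left out (1403 to 1756 higher, 1061 to 1408 lower). There were 3751 with DESeq2, 3103 with limma-voom and 3495 with edgeR on the WT libraries alone. DESeq2 too was run on the WT libraries only, so its counts differ from the main ones in both tool and libraries. At an adjusted p under 0.05 with any fold there were 4865 genes (2512 higher, 2353 lower), and at an adjusted p under 0.01 with a fold above 2 there were 972 (802 higher, 170 lower). In Has2+/- mice 2472 to 2708 genes were called with 1 WT library left out, and the interaction called 0 genes with edgeR under each alternative run. No paired analysis was possible because the columns carry a running library number and no replicate number. Of the 444 genes that the naming rule covers, none changed its called direction and 370 were called, and 60 of these lost the call under at least 1 alternative, 51 of them with 1 library left out. Those described above (Alox15, Ear1, Fth1, Glul, Gzmb, Krt5, Lcn2, Ngfr, Nrp2, Rsad2, Sgk1, Trp63 and Vegfb) are given there with the libraries or settings that lost it. Another 27 of the 444 gained a call under at least 1 alternative. With edgeR on the WT libraries alone Scgb1a1 (log2 fold change -0.44, adjusted p = 8.02e-04), Col1a1 (0.50, adjusted p = 0.00106), Pecam1 (-0.41, adjusted p = 0.00186), Lck (0.40, adjusted p = 0.00485) and Dbp (-1.90, adjusted p = 0.00145) were called. DESeq2, on the same libraries, called them as well, and also Cdh5 (-0.33, adjusted p = 0.00214). Cftr was called without WT-saline library 2 (0.49, adjusted p = 0.00499). The median of the venous list was -0.03 without WT-OVA library 11 or WT-saline library 3, against 0.14. At 4663153 to 6424220 counts a library, 10 of the 13 type 2 cytokines and alarmins were under the filter on low counts. The causes of these changes were not tested.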

Other observations

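The largest fall among genes with a mean of at least 100 CPM in one group was that of Lars2, the mitochondrial leucyl-tRNA synthetase, named after its values were seen. It was at 42.3, 30.6, 36.7, 73.4 and 79.8 CPM in the WT-OVA lungs, against 97.7, 61.7, 66.2, 3249 and 52.0 CPM in the WT-saline lungs (log2 fold change -3.74, adjusted p = 0.00383). The groups overlapped, and WT-saline library 4 alone set the saline mean. Without that library the log2 fold change was -0.39 (adjusted p = 0.288). With all libraries limma-voom gave -1.56 (adjusted p = 0.14), while DESeq2 on the WT libraries gave no adjusted p. Lars2 was 1 of 343 called genes whose groups overlapped, against 2832 that did not.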
